A study of Mus musculus with 93 samples.

Results

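Enzymes of methionine and one-carbon metabolism were followed in the liver through 9 genes: Mat1a, Gnmt, Pemt, Nnmt, Ahcy, Bhmt, Shmt1, Cbs and Cth. They were taken as the rows of the count table whose Ensembl identifiers carry these symbols in the GENCODE annotation, which is 9 of 53465 genes, and all 9 were among the 19110 genes with enough reads to be tested. The RNA came from livers of 93 male mice of 7 inbred strains, of which C57BL/6J, DBA/2J, A/J and 129S1/SvImJ are domesticated and WSB/EiJ, CAST/EiJ and PWK/PhJ are wild-derived. All mice were moved to 30°C, which is thermoneutral for the mouse, at 6 weeks of age, received a control diet (CD) or a Western diet (WD) from 7 weeks of age for 17 weeks, and were killed at 24 weeks after a fast of 4 h. Fat gave 10% of the energy of CD and 40% of that of WD, carbohydrate gave 73% and 43%, and protein gave 17% of both. On CD and on WD there were, respectively, 8 and 8 C57BL/6J mice, 6 and 7 DBA/2J mice, 5 and 6 A/J mice, 7 and 6 129S1/SvImJ mice, 6 and 6 WSB/EiJ mice, 7 and 8 CAST/EiJ mice, and 6 and 7 PWK/PhJ mice. The mice of a strain are inbred, so the spread within a group is that between animals of 1 genotype.

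The liver is the main site of methionine breakdown. Methionine adenosyltransferase, encoded by Mat1a, turns methionine into S-adenosylmethionine (SAM), the methyl donor that Gnmt, Pemt and Nnmt use to methylate glycine, phosphatidylethanolamine and nicotinamide. The S-adenosylhomocysteine left behind is split by Ahcy into adenosine and homocysteine, which is either methylated back to methionine, with betaine by Bhmt or through the folate cycle that Shmt1 feeds from serine, or passed by Cbs and then Cth to cysteine.

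RefSeq upstream sequences (GRCm38.p6) were matched for 6 of the 9 genes, Gnmt, Bhmt, Cbs, Ahcy, Shmt1 and, with 2 start sites, Pemt. Those of Gnmt, Cbs and Pemt are shown because these genes fell on WD in at least 4 strains, beside a short stretch from Bhmt, which rose. Each runs 5′ to 3′ on the minus strand and leaves out bases that the annotation places in an exon of the gene, except the Bhmt stretch, which lies in an exon of a longer transcript. The Gnmt sequence lies at chr17:46729169-46729415, that of Cbs at chr17:31637239-31637455, those of Pemt at chr11:60040189-60040438 and chr11:60037006-60037255, and that of Bhmt at chr13:93637800-93637814. Capitals mark matches, on either strand, to the nuclear receptor half-site AGGTCA, the GC box GGGCGG, the CCAAT box CCAAT and the TATA box TATAAA. The Bhmt stretch was cut to run from its CCAAT match to the half-site match nearest the start. Its share of capitals is set by that choice and cannot be compared with the other sequences.
Gnmt: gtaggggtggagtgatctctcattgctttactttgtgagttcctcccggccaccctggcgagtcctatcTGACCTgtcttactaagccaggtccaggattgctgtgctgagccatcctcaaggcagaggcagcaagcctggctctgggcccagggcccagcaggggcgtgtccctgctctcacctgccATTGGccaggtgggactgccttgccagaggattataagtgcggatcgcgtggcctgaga
Cbs: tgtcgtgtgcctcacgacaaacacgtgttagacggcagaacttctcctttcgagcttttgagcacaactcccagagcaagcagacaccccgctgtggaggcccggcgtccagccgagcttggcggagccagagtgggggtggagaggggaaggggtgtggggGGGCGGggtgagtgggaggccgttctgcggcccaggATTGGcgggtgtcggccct
Pemt, first start: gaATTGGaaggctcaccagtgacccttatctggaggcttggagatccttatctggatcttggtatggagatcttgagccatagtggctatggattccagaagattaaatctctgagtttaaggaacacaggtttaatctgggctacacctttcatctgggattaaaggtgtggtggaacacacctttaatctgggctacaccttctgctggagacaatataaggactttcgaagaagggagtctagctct
Pemt, second start: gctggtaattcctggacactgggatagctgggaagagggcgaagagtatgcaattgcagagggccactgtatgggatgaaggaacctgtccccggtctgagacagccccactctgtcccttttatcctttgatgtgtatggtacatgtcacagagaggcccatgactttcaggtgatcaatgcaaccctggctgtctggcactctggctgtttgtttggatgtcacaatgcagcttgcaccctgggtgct
Bhmt: ATTGGacaaAGGTCA

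In the full window of 250 bases before the start, Bhmt held 3 half-sites, beginning 234, 72 and 47 bases before it, and Gnmt and Ahcy held 1 each. Of all 32851 mouse windows of this length, 14.0% held a half-site, 32.7% a GC box, 33.8% a CCAAT box and 12.4% a TATA box. The Cbs window held 2 GC boxes and 2 CCAAT boxes, of which 1 each lies in the stretch shown, and the Shmt1 window held 4 GC boxes, the 2 nearest to the start sharing 1 base. The first Pemt window held 1 CCAAT box, 248 bases before the start, and the second held none of the 4 motifs. No TATA box match was found in the 7 windows. GC content was 68.0% for Cbs, 60.4% for Gnmt, and 44.8% and 52.8% for Pemt, against a median of 52.4% over all windows. These matches are letters in the reference sequence, and binding of factors was not measured.

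Between 40020424 and 49894856 reads per mouse lay on genes, and levels are CPM, the share of a gene in the reads of its library, scaled by TMM, a method that equalizes the bulk of genes between libraries. Reads of all strains were mapped to the C57BL/6J genome, and 1.66% to 14.8% of reads were unmapped, most in CAST/EiJ. The summed level of 7 hepatocyte markers lay between 57547 and 212005 CPM, and its group median was lower on WD in all 7 strains, for example 79529 against 122289 CPM in C57BL/6J. This sum mostly follows Alb, with a mean of 87715 CPM over all mice, where the next marker, Apoa1, had 9861 CPM. The single markers were not compared between the diets. The sums of 8 macrophage and leukocyte markers lay between 40.0 and 598 CPM, of 5 endothelial markers between 133 and 251 CPM, of 7 stellate and fibroblast markers between 138 and 1188 CPM, of 4 cholangiocyte markers between 4.53 and 66.5 CPM, and of 5 adipocyte markers between 2.01 and 195 CPM. The macrophage and leukocyte median was higher on WD in all 7 strains, for example 390 against 260 CPM in C57BL/6J. The stellate median was 201 CPM on CD and 512 CPM on WD in PWK/PhJ. It was lower on WD in DBA/2J (434 to 417 CPM), WSB/EiJ (380 to 361 CPM) and CAST/EiJ (342 to 315 CPM). In all other strains it was higher. The adipocyte median was 16.1 CPM on CD and 142 CPM on WD in C57BL/6J. It was lower on WD in CAST/EiJ (55.3 to 10.3 CPM) and higher in all other strains. The adipocyte sum mostly follows Cidec, with a mean of 24.8 CPM over all mice. Adipoq had 0.274 CPM, Plin1 0.254, Lep 0.0386 and Retn 0.0691 CPM. The sum of 4 exocrine pancreas markers had a group median of at most 1.68 CPM but exceeded 10 CPM in 15 mice and reached 1034 CPM in 1. These 15 mice were left out in an alternative analysis, whose changed calls stand beside the results, while the part of the other markers was not tested. In whole liver fewer cells of a type and less RNA per cell cannot be told apart. Replicate 2 of C57BL/6J on CD and replicate 3 of C57BL/6J on WD stood apart, with root mean square distances of 0.99 and 0.71 on the log2 scale from the other mice of their groups, where the highest distances in groups of other strains were 0.61 in replicate 6 of CAST/EiJ on CD and 0.59 in a mouse of DBA/2J on CD.

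Per kilobase of merged exons, averaged over all mice, Gnmt at 966 and Mat1a at 906 CPM per kb had the highest levels. Ahcy at 229 and Bhmt at 159 CPM per kb followed, then Pemt at 97.2, Cth at 96.4, Cbs at 58.3 and Shmt1 at 57.8 CPM per kb, and Nnmt was lowest at 27.4 CPM per kb. Bhmt shares 187 exon bases with a gene on the opposite strand and Shmt1 shares 184, and whether the counting separated strands is not given in the sources used here.

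**Figure D1:**
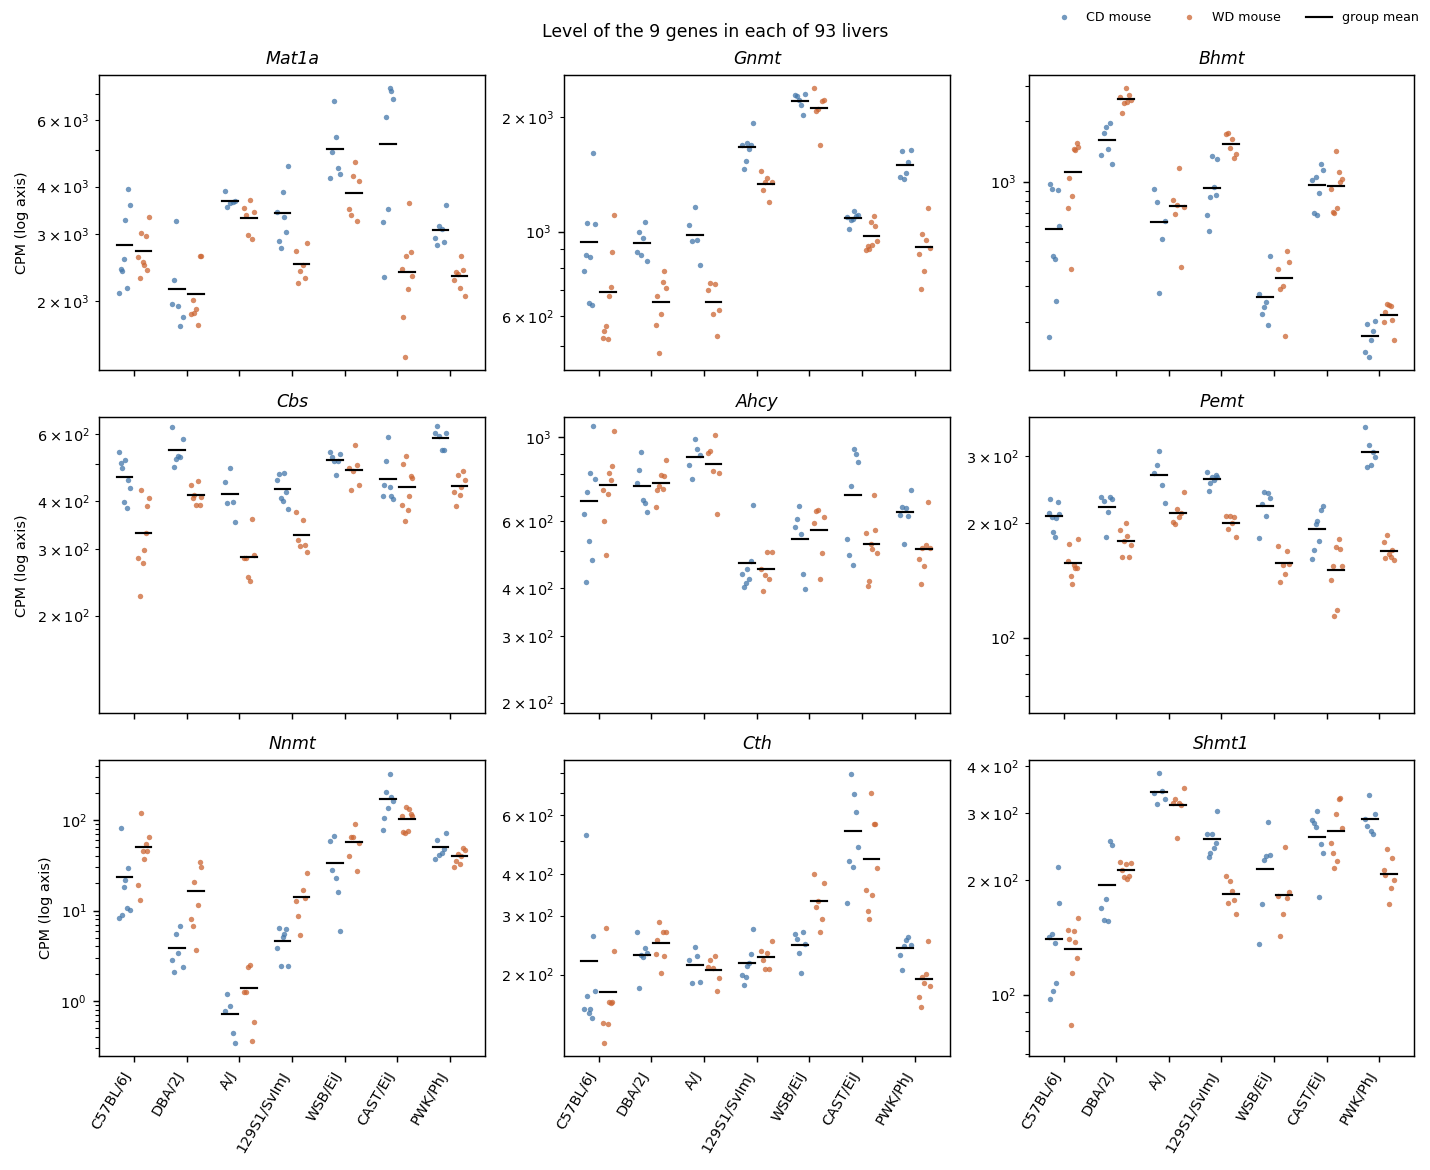
Level of each gene in CPM on a log axis (y) in each of the 93 livers, by strain (x), with mice on CD in blue, mice on WD in orange and group means as black lines. The Pemt means lie lower on WD in all 7 strains, and the Nnmt means on CD run from 0.722 CPM in A/J to 171 CPM in CAST/EiJ.

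Averaged over the 7 strains, WD lowered 5 of the 9 genes, where 24.5% of all genes tested fell, and raised 2, where 27.1% rose. Those that fell were Pemt (log2 fold change -0.45, standard error 0.03, adjusted p = 3.0e-23), Gnmt (-0.40, standard error 0.05, adjusted p = 9.0e-12), Mat1a (-0.35, standard error 0.06, adjusted p = 1.1e-06), Cbs (-0.35, standard error 0.04, adjusted p = 8.1e-14) and Shmt1 (-0.16, standard error 0.05, adjusted p = 0.0053). Those that rose were Nnmt (0.80, standard error 0.24, adjusted p = 0.004) and Bhmt (0.50, standard error 0.10, adjusted p = 2.0e-05). Ahcy (-0.08, standard error 0.06, adjusted p = 0.25) and Cth (-0.03, standard error 0.06, adjusted p = 0.68) did not pass the threshold. All p-values are from limma-voom unless another tool is named, adjusted by Benjamini-Hochberg over all genes tested, with a threshold of 0.05. The median of the 9 mean log2 fold changes was -0.16 and that over all genes tested was 0.0063, and the median size was 0.35 against 0.15.

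Within strains, 26 of the 63 combinations of gene and strain passed the threshold. In C57BL/6J, WD lowered 3 of the 9 genes, against 11.9% of all genes tested, and raised 2, against 14.3%. In DBA/2J 3 fell and 1 rose, against 7.77% and 10.2%, and in 129S1/SvImJ 4 fell and 2 rose, against 13.6% and 14.5%. In A/J 3 fell, against 4.64%, in CAST/EiJ 3 fell, against 9.73%, in PWK/PhJ 4 fell, against 14.5%, and in WSB/EiJ only Pemt fell, against 3.97%. With limma-voom 0 of the 9 rose in A/J, WSB/EiJ, CAST/EiJ and PWK/PhJ, where 4.39%, 4.97%, 9.77% and 15.1% of all genes did. At an unadjusted p below 0.05 the number that rose was 2 in WSB/EiJ and 0 in the other 3 strains, and edgeR and DESeq2 gave 0 in all 4. Each of the 26 differences had the same sign in every cohort of its strain. The cohorts hold the same mice that gave the calls, and cohort 1 of CAST/EiJ held 1 mouse on CD. The share over all genes was not counted.

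**Figure D2:**
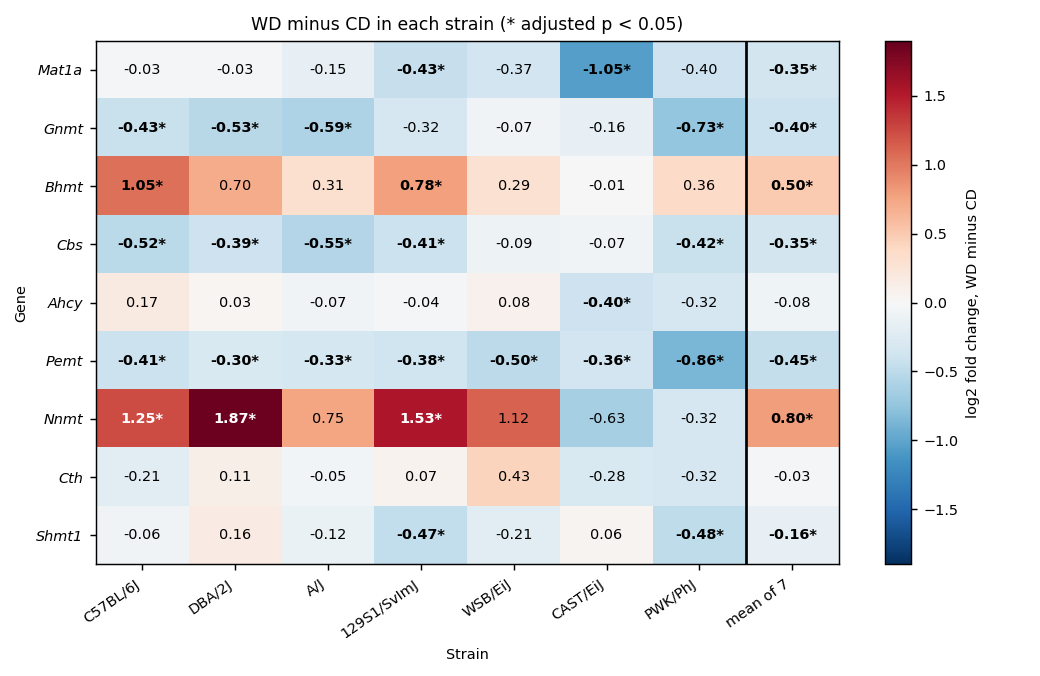
The log2 fold change of WD minus CD (colour and number) for each gene (rows) in each strain (columns), with the mean of the 7 strains, and an asterisk where the limma-voom adjusted p was below 0.05. Pemt carries an asterisk in 7 strains, Cbs in 5 and Gnmt in 4, all lower on WD, and Nnmt in 3 and Bhmt in 2, all higher.

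The methyltransferase Pemt (chr11:59970614-60046489, minus strand), which makes phosphatidylcholine from phosphatidylethanolamine in hepatocytes, fell in all 7 strains, by 0.30 to 0.86 on the log2 scale. In PWK/PhJ the lowest, median and highest values were 281, 303 and 358 CPM on CD and 160.0, 166 and 186 CPM on WD (log2 fold change -0.86, standard error 0.08, adjusted p = 5.6e-15). In WSB/EiJ they were 183, 229 and 241 CPM on CD and 139.6, 156 and 174 CPM on WD (log2 fold change -0.50, standard error 0.08, adjusted p = 3.5e-06). The diets did not overlap in PWK/PhJ, WSB/EiJ, 129S1/SvImJ and C57BL/6J. In 129S1/SvImJ the values were 242, 264 and 272 CPM on CD and 184, 204 and 209 CPM on WD, and in C57BL/6J they were 184, 209 and 231 CPM on CD and 139, 154 and 181 CPM on WD. The ranges overlapped in the other 3 strains. The 5 A/J mice on CD had 271, 284, 309, 252 and 226 CPM, against 198 to 241 CPM in the 6 on WD. In DBA/2J the ranges were 184 to 234 CPM on CD and 163 to 199.7 CPM on WD, and in CAST/EiJ they were 161 to 222 CPM and 114 to 181 CPM. Without A/J replicate 3 on CD, the highest of its group, the A/J log2 fold change was -0.27 (adjusted p = 0.052) in place of -0.33 (adjusted p = 0.007).

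The size of the Pemt decrease differed between strains (limma-voom F test, adjusted p = 3.5e-04). The log2 fold change in PWK/PhJ minus the mean of the other 6 strains was -0.48 (standard error 0.08, adjusted p = 2.0e-05). On CD, PWK/PhJ also had the highest mean level of Pemt, 308 ± 28.4 CPM (SD, n = 6), and CAST/EiJ the lowest, 193 ± 23.3 CPM (SD, n = 7). On WD the PWK/PhJ mean of 169 CPM lay between those of C57BL/6J at 157 CPM and DBA/2J at 179.6 CPM. Among neighbours in the order of CD means, only 129S1/SvImJ and WSB/EiJ did not overlap.

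Gnmt (chr17:46725664-46729168, minus strand), the glycine N-methyltransferase that takes up excess SAM in liver, fell in 4 strains. In PWK/PhJ the lowest, median and highest values were 1371, 1474 and 1642 CPM on CD and 708, 906 and 1150 CPM on WD, with no overlap (log2 fold change -0.73, standard error 0.13, adjusted p = 2.8e-06). The 5 A/J mice on CD had 1039, 944, 1160, 951 and 815 CPM, and the 6 on WD lay below all of them, at 530.4 to 731 CPM (log2 fold change -0.59, standard error 0.13, adjusted p = 0.0016). In DBA/2J the mice on WD, at 478 to 789.6 CPM, also lay below all those on CD, at 837 to 1059 CPM. C57BL/6J overlapped, with 642 to 1613 CPM on CD and 520.0 to 1107 CPM on WD (log2 fold change -0.43, standard error 0.11, adjusted p = 0.0017), and the difference was -0.67 in 1 cohort and -0.03 in the other. In a fit of C57BL/6J alone the adjusted p was 0.14. In 129S1/SvImJ all 6 mice on WD, at 1198 to 1443 CPM, lay below the 7 on CD, at 1462 to 1933 CPM (log2 fold change -0.32, standard error 0.13, adjusted p = 0.051), and this difference passed the threshold in 11 of 18 alternative analyses. WSB/EiJ (-0.07, standard error 0.13) and CAST/EiJ (-0.16, standard error 0.11) had the smallest log2 fold changes.

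On CD, Gnmt was highest in WSB/EiJ, at 2208 ± 106 CPM (SD, n = 6), and no mouse of another strain on CD reached its lowest value of 2025 CPM. The WSB/EiJ mice came from cohorts that held no other strain, so strain and cohort cannot be told apart here. 129S1/SvImJ followed at 1667 ± 149.7 CPM (SD, n = 7) and PWK/PhJ at 1497 ± 119 CPM (SD, n = 6), and these overlapped. CAST/EiJ, A/J, C57BL/6J and DBA/2J lay lower, between 1084 and 935 CPM, with overlap between neighbours. The diet effect differed between strains in the F test (adjusted p = 0.014), and the log2 fold change in PWK/PhJ minus the mean of the others was -0.38 (standard error 0.14, adjusted p = 0.041). That difference missed the threshold without A/J replicate 5 on CD (adjusted p = 0.051) and without the 15 mice with pancreas markers (adjusted p = 0.21), and without these 15 the F test gave an adjusted p of 0.11.

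Nnmt (chr9:48591877-48605153, minus strand), which methylates nicotinamide and so removes a precursor of NAD and a methyl group, had the widest range of levels between strains, with a CD mean 237-fold higher in CAST/EiJ than in A/J. The 5 A/J mice on CD had 0.763, 1.19, 0.869, 0.445 and 0.345 CPM, which is 16 to 52 reads. CAST/EiJ on CD had a lowest, median and highest value of 78.6, 165 and 328 CPM. Between them, PWK/PhJ had 50.2 ± 13.4 CPM (SD, n = 6), WSB/EiJ 33.2 ± 24.6 CPM (SD, n = 6), C57BL/6J 23.7 ± 24.6 CPM (SD, n = 8), 129S1/SvImJ 4.55 ± 1.68 CPM (SD, n = 7) and DBA/2J 3.84 ± 1.89 CPM (SD, n = 6). In this order CAST/EiJ and PWK/PhJ, C57BL/6J and 129S1/SvImJ, and DBA/2J and A/J did not overlap, and the other neighbours did.

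Nnmt rose on WD in DBA/2J, 129S1/SvImJ and C57BL/6J, with overlap between the diets in each. In DBA/2J the lowest, median and highest values were 2.08, 3.13 and 6.80 CPM on CD and 3.69, 11.7 and 34.8 CPM on WD, and 5 of the 7 mice on WD lay above all mice on CD (log2 fold change 1.87, standard error 0.61, adjusted p = 0.022). In 129S1/SvImJ they were 2.42, 5.09 and 6.40 CPM on CD and 5.36, 13.2 and 26.1 CPM on WD, with 5 of 6 above all mice on CD (log2 fold change 1.53, standard error 0.56, adjusted p = 0.03). In C57BL/6J they were 8.33, 14.5 and 81.7 CPM on CD and 13.1, 45.8 and 119 CPM on WD (log2 fold change 1.25, standard error 0.36, adjusted p = 0.0055). The highest C57BL/6J value on each diet belonged to the mouse that stood apart, and without both mice the log2 fold change was 1.38. The DBA/2J call was lost when every gene with any count was tested (adjusted p = 0.089) and without the mice with pancreas markers (adjusted p = 0.058). The 129S1/SvImJ call was lost with every gene tested (adjusted p = 0.1), and the C57BL/6J call in a fit of that strain alone (adjusted p = 0.09).

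In WSB/EiJ the log2 fold change of Nnmt was 1.12 (adjusted p = 0.07), which passed the threshold in 2 of 18 alternative analyses, without C57BL/6J replicate 2 on CD (adjusted p = 0.047) and without both C57BL/6J mice that stood apart (adjusted p = 0.036). In A/J it was 0.75 (adjusted p = 0.79). In the 2 strains with the highest CD means Nnmt did not pass the threshold, with a log2 fold change of -0.63 (standard error 0.36) in CAST/EiJ and -0.32 (standard error 0.38) in PWK/PhJ. The diet effect differed between strains (F test, adjusted p = 5.5e-04). Minus the mean of the other 6 strains, the diet effect came to -1.66 (standard error 0.45, adjusted p = 0.0069) in CAST/EiJ and -1.30 (standard error 0.47, adjusted p = 0.045) in PWK/PhJ on the log2 scale. The PWK/PhJ difference missed the threshold with DESeq2 (adjusted p = 0.051), with every gene tested (adjusted p = 0.073), without the mice with pancreas markers (adjusted p = 0.24), and without A/J replicate 1, 4 or 5 on CD (adjusted p = 0.051, 0.056 and 0.059).

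Mat1a (chr14:41105035-41124412, plus strand), the liver form of methionine adenosyltransferase, fell in CAST/EiJ and 129S1/SvImJ. The 7 CAST/EiJ mice on CD had 3236, 2316, 6098, 3495, 7278, 7136 and 6799 CPM, with no value between 3495 and 6098 CPM, and the 8 on WD had a lowest, median and highest value of 1425, 2379 and 3625 CPM (log2 fold change -1.05, standard error 0.15, adjusted p = 1.7e-07). The ranges overlapped, and within the 3 cohorts the difference was -0.81, -0.66 and -1.06. Mice on both sides of the gap came from cohorts 3 and 4, and the 4 mice with the most Mat1a, among them replicate 6, were also the 4 with the most Ahcy and the most Nnmt. The adipocyte sum varied in the same group, from 6.32 to 135 CPM, and its part was not tested. In this group Cidec had a mean of 64.4 CPM, Adipoq 0.240, Plin1 0.309, Lep 0.0147 and Retn 0.0542 CPM. In 129S1/SvImJ the lowest, median and highest Mat1a values were 2754, 3328 and 4525 CPM on CD and 2226, 2448 and 2847 CPM on WD, with overlap (log2 fold change -0.43, standard error 0.16, adjusted p = 0.037). This call was lost with upper-quartile scaling (log2 fold change -0.37, adjusted p = 0.078) and with every gene tested (adjusted p = 0.086).

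The Mat1a diet effect differed between strains (F test, adjusted p = 0.0012), and in CAST/EiJ the log2 fold change minus the mean of the other strains was -0.81 (standard error 0.17, adjusted p = 2.9e-04). In PWK/PhJ all 7 mice on WD, at 2066 to 2634 CPM, lay below the 6 on CD, at 2802 to 3574 CPM (log2 fold change -0.40, standard error 0.16, adjusted p = 0.055). This difference passed the threshold with cohort as a covariate (adjusted p = 0.03), with sample quality weights (adjusted p = 0.013) and in a fit of PWK/PhJ alone (adjusted p = 6.6e-04). C57BL/6J and DBA/2J both had a log2 fold change of -0.03 (standard errors 0.15 and 0.16). On CD the highest means were those of CAST/EiJ at 5194 ± 2102 CPM (SD, n = 7) and WSB/EiJ at 5015 ± 954 CPM (SD, n = 6), and the lowest was that of DBA/2J at 2157 ± 564 CPM (SD, n = 6). Only WSB/EiJ and A/J, at 3674 ± 135 CPM (SD, n = 5), were neighbours without overlap.

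Ahcy (chr2:155059310-155074497, minus strand), which hydrolyses S-adenosylhomocysteine, passed the threshold in CAST/EiJ alone. The 7 mice on CD had 540.2, 488, 742, 462, 932, 903 and 861 CPM and the 8 on WD had 406 to 702 CPM, with overlap (log2 fold change -0.40, standard error 0.14, adjusted p = 0.031). The call was lost with cohort as a covariate (log2 fold change -0.31, adjusted p = 0.098), in a fit of CAST/EiJ alone (adjusted p = 0.12) and with every gene tested (adjusted p = 0.12). The next lowest log2 fold change was that of PWK/PhJ (-0.32, with a standard error of 0.15 and an adjusted p of 0.095), and in the other 5 strains it lay between -0.07 and 0.17. The PWK/PhJ difference passed with sample quality weights (adjusted p = 0.009) and in a fit of PWK/PhJ alone (adjusted p = 0.022). The F test of a difference between strains gave an adjusted p of 0.11. It passed with sample quality weights (adjusted p = 0.024) and without C57BL/6J replicate 3 on WD (adjusted p = 0.045). In CAST/EiJ the log2 fold change minus the mean of the other 6 strains was -0.37 (adjusted p = 0.086). That difference passed with DESeq2 (adjusted p = 0.038) and with quality weights (adjusted p = 0.022). On CD the mean was highest in A/J, at 886 ± 79.8 CPM (SD, n = 5), and lowest in 129S1/SvImJ, at 465 ± 89.6 CPM (SD, n = 7), and all neighbours in the order overlapped.

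Of the genes on the way from homocysteine back to methionine, Bhmt (chr13:93616675-93637961, minus strand), the betaine-homocysteine methyltransferase, rose in C57BL/6J and 129S1/SvImJ. In C57BL/6J the lowest, median and highest values were 167, 514 and 973 CPM on CD and 367, 1247 and 1565 CPM on WD (log2 fold change 1.05, standard error 0.24, adjusted p = 5.1e-04). Of the 8 mice on WD 5 lay above all mice on CD, and the highest mouse on CD and the lowest on WD were those that stood apart. Without them the log2 fold change was 1.41, and in a fit of C57BL/6J alone the adjusted p was 0.072. In 129S1/SvImJ the values were 566, 858 and 1347 CPM on CD and 1312, 1552 and 1748 CPM on WD, with 5 of 6 above all mice on CD (log2 fold change 0.78, standard error 0.28, adjusted p = 0.026). In DBA/2J all 7 mice on WD, at 2210 to 2941 CPM, lay above the 6 on CD, at 1223 to 1976 CPM (log2 fold change 0.70, standard error 0.29, adjusted p = 0.077). That difference passed in 5 of 18 alternative analyses, among them a fit of DBA/2J alone (adjusted p = 3.8e-04).

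The log2 fold change of Bhmt was -0.01 in CAST/EiJ, 0.29 in WSB/EiJ, 0.31 in A/J and 0.36 in PWK/PhJ. The A/J value was 0.05 without replicate 3 on CD and 0.49 without replicate 1, and 0.10 with cohort as a covariate, and PWK/PhJ passed the threshold in a fit of that strain alone (adjusted p = 0.018). The F test of a difference between strains gave an adjusted p of 0.12, and 0.0069 without the 2 C57BL/6J mice that stood apart. On CD, Bhmt differed 9.53-fold between the highest and the lowest mean. DBA/2J had 1608 ± 304 CPM (SD, n = 6), WSB/EiJ 266 ± 82.4 CPM (SD, n = 6) and PWK/PhJ 169 ± 28.2 CPM (SD, n = 6), and the other 4 strains lay between 582 and 958 CPM. All neighbours overlapped, and the log2 CD level minus the mean of the other 6 strains was 1.76 (standard error 0.22, adjusted p = 1.1e-10) in DBA/2J and -2.03 (standard error 0.20, adjusted p = 2.7e-15) in PWK/PhJ.

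Shmt1 (chr11:60788104-60811718, minus strand), the cytosolic serine hydroxymethyltransferase, fell in 129S1/SvImJ and PWK/PhJ, with no overlap between the diets in either. In 129S1/SvImJ the lowest, median and highest values were 231, 251 and 304 CPM on CD and 163, 182 and 205 CPM on WD (log2 fold change -0.47, standard error 0.13, adjusted p = 0.0046). In PWK/PhJ they were 265, 284 and 336 CPM on CD and 173, 207 and 241 CPM on WD (log2 fold change -0.48, standard error 0.14, adjusted p = 0.004). The log2 fold change in the other 5 strains lay between -0.21 and 0.16. The diet effect differed between strains (F test, adjusted p = 0.015), but not past the threshold without the mice with pancreas markers (adjusted p = 0.099). On CD the mean was highest in A/J, at 342 ± 25.3 CPM (SD, n = 5), and lowest in C57BL/6J, at 140.0 ± 40.0 CPM (SD, n = 8), and all neighbours overlapped.

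Of the transsulfuration genes, Cbs passed the threshold in 5 strains and Cth in none with limma-voom as fitted to all groups. Cbs (chr17:31608894-31637238, minus strand), which joins homocysteine to serine, fell by 0.39 to 0.55 on the log2 scale in C57BL/6J, DBA/2J, A/J, 129S1/SvImJ and PWK/PhJ. In PWK/PhJ the lowest, median and highest values were 545, 598 and 631 CPM on CD and 388, 435 and 481 CPM on WD (log2 fold change -0.42, standard error 0.10, adjusted p = 3.4e-04). In DBA/2J they were 492, 525 and 627 CPM on CD and 390.0, 411 and 453 CPM on WD, and in 129S1/SvImJ 382, 424 and 473 CPM on CD and 294, 312 and 374 CPM on WD. These 3 strains had no overlap between the diets. The 5 A/J mice on CD had 450.1, 395, 490.4, 399 and 353 CPM, and of the 6 on WD, at 247 to 359 CPM, 5 lay below them all (log2 fold change -0.55, standard error 0.10, adjusted p = 1.2e-04). The C57BL/6J values were 385, 472 and 539 CPM on CD and 226, 314 and 429 CPM on WD, with overlap (log2 fold change -0.52, standard error 0.09, adjusted p = 1.8e-06), and the cohorts gave -0.79 and -0.21.

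The log2 fold change of Cbs was -0.09 (standard error 0.10) in WSB/EiJ and -0.07 (standard error 0.09) in CAST/EiJ. The diet effect differed between strains (F test, adjusted p = 0.0051). In CAST/EiJ the log2 fold change minus the mean of the other 6 was 0.33 (standard error 0.10, adjusted p = 0.013), with an adjusted p of 0.18 without the mice with pancreas markers. On CD, Cbs varied least of the 9 genes, 1.41-fold from 587 ± 34.6 CPM (SD, n = 6) in PWK/PhJ to 418 ± 53.3 CPM (SD, n = 5) in A/J, and all neighbours overlapped.

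Cth (chr3:157894248-157925077, minus strand), which releases cysteine from cystathionine, passed the threshold on WD in 0 of 7 strains with limma-voom, edgeR and DESeq2, and at an unadjusted p below 0.05 in 1, WSB/EiJ. There all 6 mice on WD, at 268.1 to 400.4 CPM, lay above the 6 on CD, at 202.4 to 267.7 CPM (log2 fold change 0.43, standard error 0.18, adjusted p = 0.12). The log2 fold change was -0.21 in C57BL/6J, -0.28 in CAST/EiJ and -0.32 in PWK/PhJ, and between -0.05 and 0.11 in the remaining strains. Cth passed the threshold in WSB/EiJ with sample quality weights (adjusted p = 0.013), in a fit of that strain alone (adjusted p = 0.018) and without both C57BL/6J mice that stood apart (adjusted p = 0.046). In PWK/PhJ it passed with quality weights (adjusted p = 0.035) and in a fit of PWK/PhJ alone (adjusted p = 0.015). Without the mice with pancreas markers the CAST/EiJ value was -0.60 (adjusted p = 0.03). Minus the mean of the other 6 strains it was then -0.60 (adjusted p = 0.049), in place of -0.29 (adjusted p = 0.29). The F test of a difference between strains gave an adjusted p of 0.079, and 0.0058 to 0.23 in the alternatives. It was 0.038 without the mice with pancreas markers. In C57BL/6J on CD replicate 2, which stood apart, had 524 CPM and the other 7 mice at most 261 CPM, and without it the log2 fold change was -0.0052.

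On CD, Cth set CAST/EiJ apart. Its 7 mice had a lowest, median and highest value of 328, 482 and 797 CPM, and the means of the other strains lay between 214 and 245 CPM. No mouse of WSB/EiJ, the next strain in the order, reached the CAST/EiJ range, while all lower neighbours overlapped. Replicate 2 of C57BL/6J on CD, which stood apart, lay within that range at 524 CPM. The log2 CD level of Cth in CAST/EiJ minus the mean of the other 6 strains was 1.22 (standard error 0.13, adjusted p = 1.1e-13).

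Across the 9 genes, the diet effect differed between strains for 6, where 37.5% of all genes tested did. Against the mean of the other 6 strains, 3 of the 9 differed in CAST/EiJ (Mat1a, Cbs and Nnmt), where 14.5% of all genes did, and 3 in PWK/PhJ (Gnmt, Pemt and Nnmt), where 16.3% did. With limma-voom 0 of the 9 differed in C57BL/6J, DBA/2J, A/J, 129S1/SvImJ and WSB/EiJ, where 4.69%, 7.77%, 0.466%, 6.28% and 0.947% of all genes did. At an unadjusted p below 0.05 these numbers were 3, 3, 1, 1 and 3, and edgeR and DESeq2 each gave 1 in DBA/2J, which was Nnmt, and 0 in the other 4 strains.

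On CD the level differed between strains for all 9 genes, as it did for 93.7% of all genes tested. Against the mean of the other 6 strains, 5 of the 9 differed in C57BL/6J and in WSB/EiJ and 6 in each of the other strains. The share of all genes that did was 57.9% in C57BL/6J, 42.3% in DBA/2J, 36.7% in A/J, 44.2% in 129S1/SvImJ, 49.2% in WSB/EiJ, 63.9% in CAST/EiJ and 58.6% in PWK/PhJ, so the counts of the 9 genes lay near those of all genes in several strains. The log2 CD level of Nnmt minus the mean of the other strains was 4.34 (standard error 0.34, adjusted p = 7.5e-20) in CAST/EiJ and -4.85 (standard error 1.03, adjusted p = 7.5e-05) in A/J. Without the 15 mice with pancreas markers, the 40 differences of a single strain's CD level became 35. Lost were Gnmt in A/J, CAST/EiJ and PWK/PhJ (adjusted p = 0.085, 0.059 and 0.066) and Cbs in DBA/2J and A/J (0.06 and 0.26). Also lost were Ahcy in WSB/EiJ (0.12) and Shmt1 in DBA/2J (0.069), while Pemt was gained in DBA/2J (0.04) and WSB/EiJ (0.026). The effect on single genes of mapping all strains to the C57BL/6J genome was not tested. WSB/EiJ mice came only from cohorts 6 and 7, which held no other strain, so strain and cohort cannot be told apart there. The other strains shared cohorts to differing degrees, and cohort was compared or adjusted for within strains only.

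Strain went with the greatest share of the variance of log2 CPM in all of the 9 genes except Pemt, from 37.9% in Cbs to 82.4% in Nnmt. For Pemt diet went with 47.1% and strain with 30.0%. Diet went with 29.5% of the variance of Cbs, 14.1% of that of Mat1a and 11.2% of that of Gnmt, and with 0.221% to 4.47% of that of the other 5 genes. The median share over all genes tested was 2.30% for diet and 54.8% for strain. These shares are a description of the 93 mice.

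**Figure D3:**
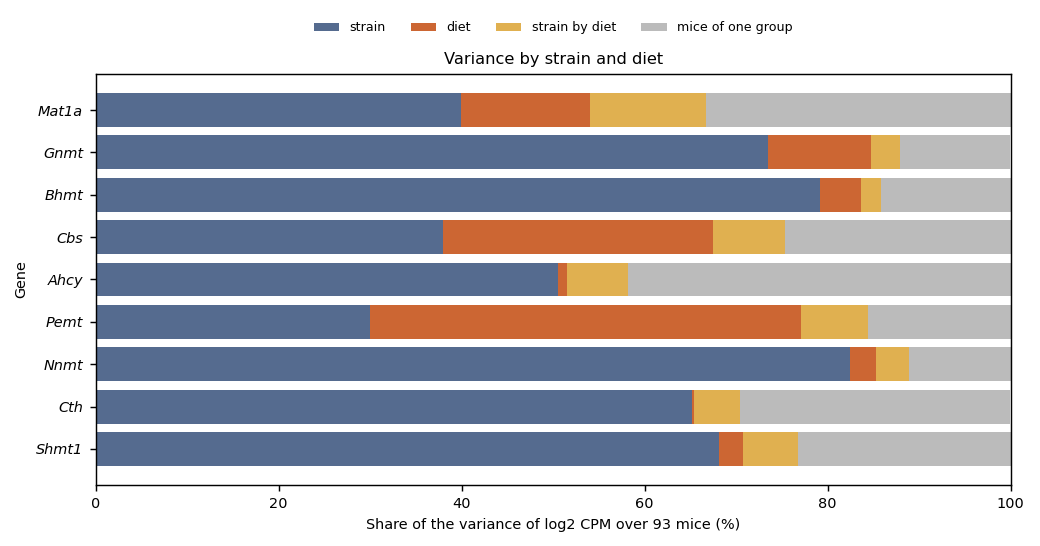
Share of the variance of log2 CPM over the 93 mice (x, in percent) that goes with strain, diet, their interaction, and the rest between mice of 1 group, for each gene (y). Diet is the widest segment for Pemt alone, at 47.1%, and the next highest diet share is that of Cbs, at 29.5%.

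Over the 14 group means of log2 CPM, the highest Pearson correlations among the 9 genes were 0.57 for Mat1a and Gnmt, 0.56 for Nnmt and Cth, and 0.52 for Gnmt and Cbs. The lowest were -0.61 for Gnmt and Ahcy and -0.51 for Pemt and Nnmt. The group means share strain and diet, and the values are a description. Of 11140 genes compared over the same 14 means, those most like Pemt were Erg28 (r = 0.93) and Stub1 (r = 0.92), those most like Gnmt were Rfx4 (r = 0.94) and Ndufab1 (r = 0.94), and those most like Nnmt were Pdlim1 (r = 0.93) and Pi4k2b (r = 0.92). For Mat1a they were the mitochondrial folate carrier gene Slc25a32 (r = 0.90) and the liver glycogen synthase gene Gys2 (r = 0.89), for Ahcy Ercc2 (r = 0.90) and Bicd2 (r = 0.86), and for Bhmt Mxd4 (r = 0.93) and Plod3 (r = 0.91). For Shmt1 they were Alkbh5 (r = 0.93) and F13b (r = 0.90), for Cbs Trir (r = 0.92) and Lrp5 (r = 0.91), and for Cth Tmem161a (r = 0.94) and Hsd17b2 (r = 0.94).

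Around the 9 genes, all 73 further genes of 6 lists were tested. Averaged over the strains 26 of them rose and 21 fell on WD, against 27.1% and 24.5% of all genes tested, and the median log2 fold change of the 73 was 0.04. In the folate list 10 of 20 genes fell and 4 rose, with a median of -0.08. It included Aldh1l2, a mitochondrial formyltetrahydrofolate dehydrogenase (-0.53, standard error 0.15, adjusted p = 0.0028) at a mean of 0.437 CPM, and Mthfd1l, a mitochondrial formyltetrahydrofolate synthetase (0.37, standard error 0.15, adjusted p = 0.03). The diet effects of both differed between strains (F test, adjusted p = 0.0015 and 0.021). Aldh1l2 fell past the threshold in C57BL/6J and 129S1/SvImJ only, and Mthfd1l rose past it in DBA/2J and A/J only. In the choline and betaine list 4 of 11 rose and 5 fell. Chpt1, the cholinephosphotransferase of the pathway parallel to Pemt, rose (0.50, standard error 0.05, adjusted p = 3.4e-14), in C57BL/6J from 140.4 to 294 CPM. This rise passed the threshold in C57BL/6J, DBA/2J, 129S1/SvImJ and WSB/EiJ. The log2 fold change of Chpt1 was 0.37 in A/J, 0.14 in PWK/PhJ and 0.02 in CAST/EiJ. Pcyt2, an enzyme of phosphatidylethanolamine synthesis, fell (-0.34, standard error 0.03, adjusted p = 1.8e-15), past the threshold in 5 strains, and choline kinase Chka fell (-0.33, standard error 0.13, adjusted p = 0.023), in DBA/2J from 80.6 to 34.4 CPM.

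In the methionine cycle list 3 of 10 genes rose and 2 fell, led by Ahcyl2, a relative of Ahcy (0.27, standard error 0.06, adjusted p = 1.5e-04), the guanidinoacetate methyltransferase Gamt (-0.18, standard error 0.05, adjusted p = 0.0027) and the mitochondrial SAM carrier Slc25a26 (0.17, standard error 0.03, adjusted p = 2.7e-07). Of the cysteine, taurine and glutathione genes 5 of 11 rose and 2 fell. Slc7a11, a subunit of the cystine transporter, rose (1.49, standard error 0.26, adjusted p = 1.0e-06) from very low levels, in 129S1/SvImJ from 0.123 to 1.02 CPM, and the sulfur oxidation genes Ethe1 (0.37, standard error 0.06, adjusted p = 4.4e-08) and Suox (0.24, standard error 0.04, adjusted p = 1.3e-08) rose. Of the salvage and polyamine genes 5 of 10 rose and 1 fell, led by Sat1, which acetylates polyamines (0.30, standard error 0.04, adjusted p = 1.0e-09), and the methionine salvage genes Adi1 (0.19, standard error 0.03, adjusted p = 8.3e-09) and Mri1 (-0.14, standard error 0.03, adjusted p = 1.3e-05). Of the nicotinamide and NAD genes 5 of 11 rose and 1 fell, led by the aldehyde oxidase Aox1 (0.48, standard error 0.06, adjusted p = 5.8e-11), the adenylyltransferase Nmnat3 (0.33, standard error 0.06, adjusted p = 6.3e-07) and the nicotinamide phosphoribosyltransferase Nampt (0.31, standard error 0.07, adjusted p = 6.0e-05). The diet effect also differed between strains for Chpt1, Pcyt2, Ahcyl2, Slc7a11, Ethe1, Suox, Sat1, Adi1, Aox1 and Nampt. For these the F test gave adjusted p-values from 9.2e-07 for Ethe1 to 0.047 for Suox. In CAST/EiJ the log2 fold change of Nampt was -0.42.

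**Figure D4:**
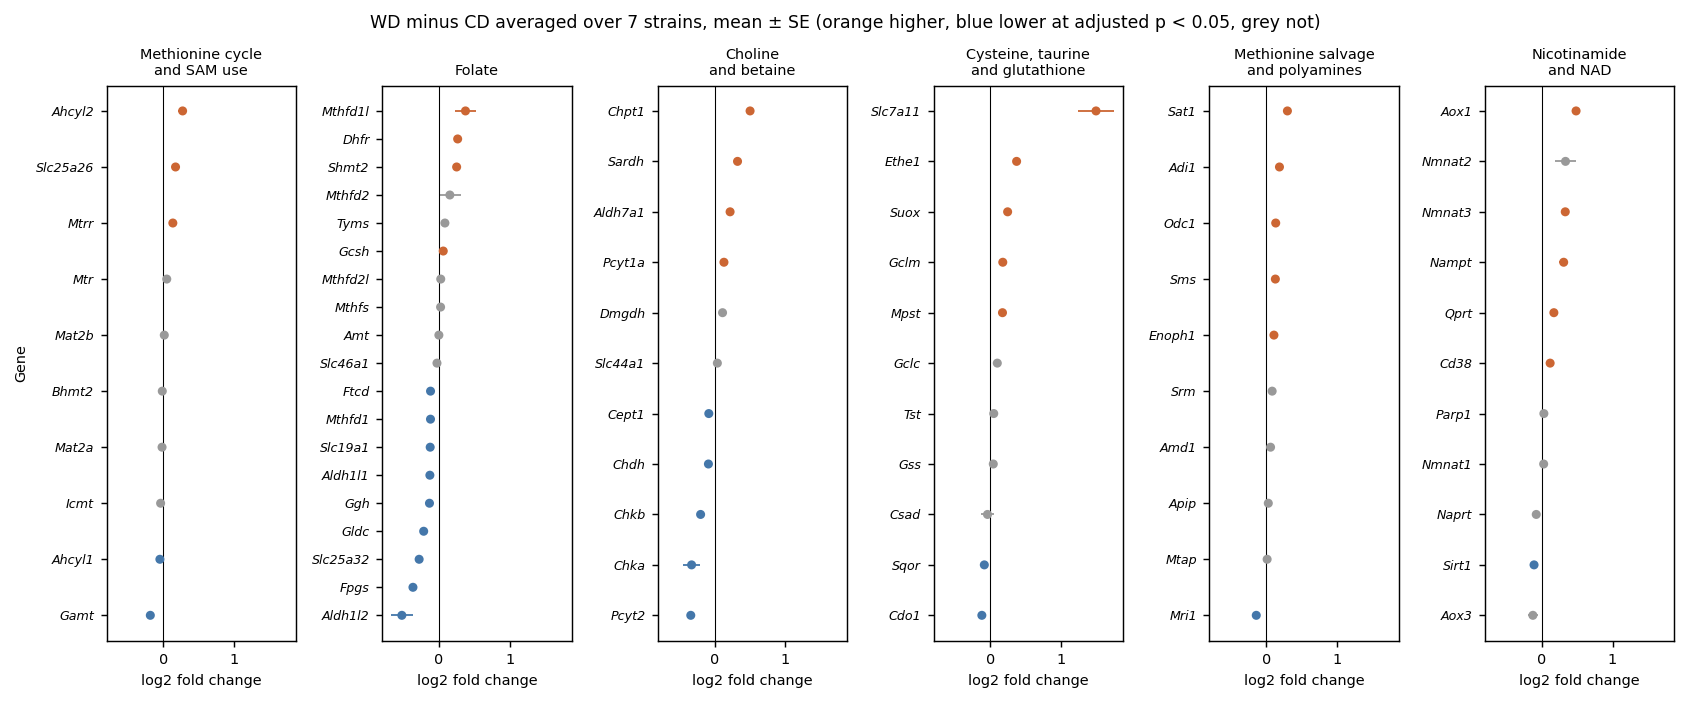
Mean log2 fold change of WD minus CD over the 7 strains (x, with its standard error as a bar) for 72 of the 73 further genes (y) in their 6 lists, coloured where the limma-voom adjusted p was below 0.05. Of those plotted, 26 are higher and 20 lower on WD, and Slc7a11 lies farthest to the right at 1.49.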

How the data were processed

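Liver RNA of 93 mice was sequenced by the authors (SMARTER libraries, BGISEQ-500), and the authors deposited 1 table of raw counts per gene, made with STAR 2.7.1a on GRCm38 (mm10) per the submitters' processing notes. Reads of all strains were mapped to the C57BL/6J reference, and whether strand was used in counting is not given in the sources used here. The 4 summary lines of the table, 19.9% to 34.7% of reads, were left out of library sizes and tests. From the counts, 19110 genes passed filterByExpr (minimum count 10) and were fitted with limma-voom (limma 3.58.1, edgeR 4.0.16, R 4.3.3) on TMM-scaled libraries, with 1 mean for each of 14 groups and Benjamini-Hochberg adjustment within each contrast. Cohort was compared within strains from log2 CPM. Between 40020424 and 49894856 reads per mouse lay on genes, and p-values measure the spread between the mice of a group.

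Alternatives were edgeR's quasi-likelihood test, DESeq2 1.42.0, upper-quartile scaling, other filters, cohort or RIN as covariates, sample quality weights, separate fits by strain and leaving out each A/J mouse on CD, and, chosen after seeing the data, leaving out the C57BL/6J mice that stood apart and the mice with pancreas markers. The scripts were tested on simulated data. The text names all 9 genes, up to 3 genes with the largest mean diet effect past the threshold in each related list, and the 2 genes most like each of the 9 (mean log2 CPM of at least 1). One gene of the folate list enters the counts of the lists and is not reported here. The 9 genes and the lists were chosen with earlier results of these data known. Gene positions are from GENCODE M21 (GRCm38) and upstream sequences from RefSeq (GRCm38.p6).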

Additional observations from a re-analysis of the deposited data

Results flagged for a closer look

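In 9 of 126 combinations of gene and group 1 mouse lay far from the others by Dixon's criterion, which chance meets in about 1 in 20 groups. These were Mat1a in DBA/2J on CD (replicate 3, 3243 CPM), Gnmt in C57BL/6J on CD (replicate 7, 1613 CPM), Bhmt in WSB/EiJ on CD (replicate 6, 424 CPM), Cbs in A/J on WD (replicate 5, 359 CPM), Ahcy in 129S1/SvImJ on CD (replicate 7, 662 CPM) and in PWK/PhJ on WD (replicate 6, 676 CPM), and Shmt1 in A/J on WD (replicate 3, 259 CPM). Nnmt (81.7 CPM) and Cth (524 CPM) were both far higher in replicate 2 of C57BL/6J on CD, the mouse that stood apart from its group.

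The diet effect differed between strains in the limma-voom F test for Mat1a (adjusted p = 0.0012), Gnmt (adjusted p = 0.014), Cbs (adjusted p = 0.0051), Pemt (adjusted p = 3.5e-04), Nnmt (adjusted p = 5.5e-04) and Shmt1 (adjusted p = 0.015). Of single strains against the mean of the other 6, the log2 difference was -0.81 for Mat1a, 0.33 for Cbs and -1.66 for Nnmt in CAST/EiJ, and -0.38 for Gnmt, -0.48 for Pemt and -1.30 for Nnmt in PWK/PhJ.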

How the results depend on the processing

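No paired analysis was possible because the replicate numbers follow accession order and pair no mice. The number of diet calls within strains, 26, came to 24 to 33 in the alternatives (26 to 27 without single A/J mice on CD). Up to 4 of the 26 were lost, with every gene tested and in separate fits by strain, and up to 7 others gained, in separate fits and with sample quality weights. The 7 genes with a mean diet effect and the 9 with a CD level that differed between strains were unchanged in number in every alternative run, and the number whose diet effect differed between strains ran from 5 to 9. The 6 differences of a single strain's diet effect became 15 with sample quality weights, and the cause was not tested. They ran from 4 to 8 in the other alternatives and from 4 to 6 without single A/J mice. The 40 differences of a single strain's CD level ran from 35 to 43, and the 47 related genes from 44 to 54.

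The direction turned in 8 of the alternative log2 fold changes, all of differences that had not passed the threshold, and the cause was not tested. Mat1a became 0.042 in C57BL/6J with cohort as a covariate and 0.037 in DBA/2J with quality weights. Bhmt in CAST/EiJ became 0.011 with upper-quartile scaling and 0.047 with cohort, and Ahcy in 129S1/SvImJ 0.025 with upper-quartile scaling. Cth in A/J ran from -0.082 to 0.006 (without replicate 3) when single A/J mice on CD were left out, Shmt1 in C57BL/6J from -0.125 to 0.034 (without replicate 3 on WD) without single mice, and Shmt1 in CAST/EiJ -0.080 without the mice with pancreas markers.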
